A study of Mus musculus with 53 samples.

Results

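The genes described here are the glutathione, peroxiredoxin and other antioxidant genes that the array measured in NIH-3T3 cells, a mouse embryonic fibroblast line, on their way to adipocytes. They were chosen by symbol. The set takes every gene named Gsta, Gstm, Gsto, Gstp, Gstt, Gstz, Mgst, Prdx or Gpx with a number, and 19 further genes for superoxide dismutases, the thioredoxin system, glutathione synthesis and recycling, and the response to oxidants. By this rule 43 of the 8251 genes with a probe set of a single symbol were members, of which 36 passed a filter on low intensities and could be tested. The 7 that did not pass were Gsta1, Gsta3, Gstt2, Hmox2, Nqo1, Gpx2 and Gpx7. The rule's G6pdx and Por had no single-symbol probe set, and Prdx1 was measured only by 2 probe sets that carry a second symbol, so these genes are not analysed here. Prdx6 is likewise not analysed here.

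Glutathione is a small thiol that cells hold in reduced form. Glutamate-cysteine ligase and glutathione synthetase make it, glutathione reductase restores it with NADPH, glutathione peroxidases spend it on peroxides, and glutathione S-transferases join it to reactive lipids and foreign compounds. Peroxiredoxins and thioredoxins form a parallel route, superoxide dismutases turn superoxide into hydrogen peroxide, and the transcription factor NRF2 drives many of these genes through the antioxidant response element. Adipocytes carry a high flux of fatty acids through mitochondria and peroxisomes and make much NADPH for lipid synthesis.

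The tested cells were transduced with a vector carrying PPARg2, a fat-cell isoform of PPAR gamma, which is a ligand-bound nuclear receptor, or with one carrying EBF1, a DNA-binding factor best studied in early B lymphocytes. The control cells were transduced with the empty vector. All 3 kinds of cell received the same hormone stimulation, and total RNA was taken on day 0, day 2, day 4 and day 10. The controls thus also carried a vector and also met the hormones. Each insert had 4 arrays on day 0, 4 on day 2 and 7 on day 4. On day 10 there were 3 arrays of PPARg2 cells, 2 of EBF1 cells and 3 of vector cells. The labels speak of 7 independent stimulation experiments in one cell line, and nothing in them says whether the transduction was repeated, so p-values measure the spread between these arrays only.

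Each of the 53 arrays gave 1 linear intensity per probe set, and the array medians ran between 143 and 168. Levels of different probe sets are not comparable, so values are compared only within a gene. The ratio of the 3' to the 5' actin probe set, a sign of RNA quality, was 1.29 to 1.59 on the day-10 arrays and 1.06 to 1.42 on the day-0 arrays. Of 10 adipocyte marker genes 8 were measured, and their summed intensity on day 10 was 22130 to 24988 in PPARg2 cells, 25742 to 31452 in EBF1 cells and 4389 to 6809 in vector cells. The summed intensity of 8 fibroblast markers was 23598 to 24717 in PPARg2 cells, 29219 to 30396 in EBF1 cells and 36445 to 40188 in vector cells on the same day. Of 6 macrophage markers 3 passed the filter, and the summed intensity of the 6 was 427 to 689 on all arrays. Ptprc, a leukocyte marker among the 6, lay at the intensity floor on all 53 arrays. Sums of 4 endothelial and of 4 muscle markers were 304 to 490.5 and 920 to 1523. On day 4 the adipocyte sums were 14417 to 18006 in PPARg2 cells, 12494 to 19511 in EBF1 cells and 8844 to 12095 in vector cells. The fibroblast sums on that day were 16797 to 19359, 15739 to 18417 and 19012 to 25817 in the same order. In all cells the fibroblast sums were lower on day 2, at 18200 to 22361, than on day 0, at 27724 to 33811. The adipocyte and fibroblast sums thus moved with the day-10, day-4 and day-2 differences given below. Their part in those differences was not tested, and more adipocytes in a dish cannot be told apart from more transcript per cell.

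The largest differences between inserts and vector were on day 10. In PPARg2 cells, 10 of the 36 tested genes were higher than in vector cells and 6 were lower (limma, Benjamini-Hochberg adjusted p under 0.05). Over all 5761 genes tested in that comparison, 24.1% were called in either direction, 9.6% as higher and 14.5% as lower. In EBF1 cells, 10 were higher and 4 lower than in vector cells, against 18.5% of all genes in either direction, 10.6% higher and 7.9% lower. Without EBF1 replicate 1, the EBF1 count of 14 became 6. The calls were shared by both inserts for 9 of the higher genes and for 4 of the lower ones, and the comparisons use the same 3 vector arrays. The 9 were Gstz1, Mgst1, Mgst3, Sod2, Sod1, Prdx3, Gsto1, Txn2 and Gclm, and the 4 were Prdx4, Gstt1, Ephx1 and Gstm5. In EBF1 against PPARg2 cells on day 10 none of the 36 genes was called by limma. There 4 had an unadjusted p under 0.05, and 1.23% of all genes were called, 0.92% as higher and 0.312% as lower. The median log2 difference of the 36 genes was 0.14 for PPARg2 and 0.15 for EBF1 against vector, beside -0.01 and -0.02 over all genes tested.

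**Figure D1:**
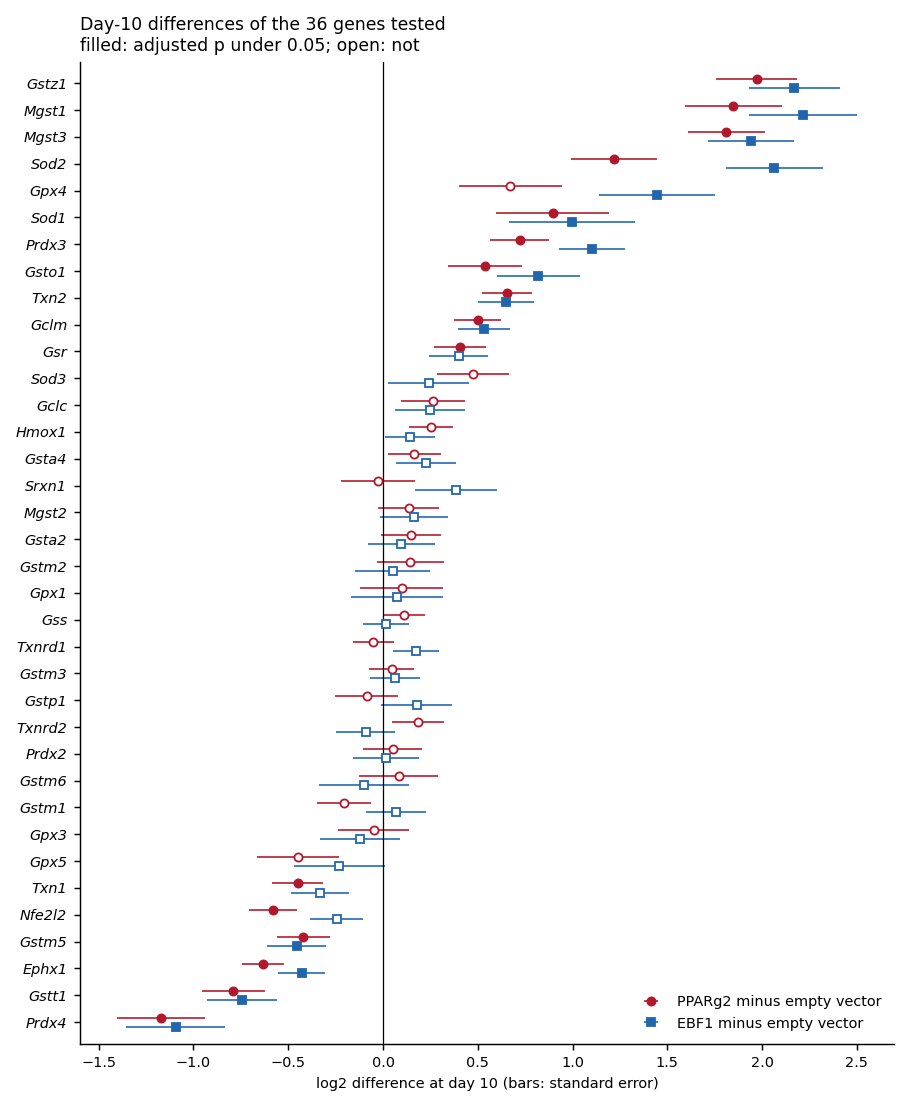
Log2 difference of each of the 36 tested genes on day 10, PPARg2 minus empty vector (circles, 3 arrays against 3) and EBF1 minus empty vector (squares, 2 arrays against 3), with standard errors and filled symbols for adjusted p under 0.05. The highest value is 2.22 for Mgst1 in EBF1 cells and the lowest is -1.17 for Prdx4 in PPARg2 cells.

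Promoter sequence bears on genes that move together, because the NRF2 element TGACNNNGC can be looked for in it. RefSeq windows on GRCm38.p6, from 250 bases before to 50 after the annotated start, were at hand for 37 of the 43 members. On either strand 8 of the 37 genes (21.6%) held a match in any of their windows, beside 14.0% of 27025 genes with such windows. These were Gclm, Gsta3, Gstm5, Mgst1, Nfe2l2, Sod1, Srxn1 and Txnrd1. The PPAR element, searched on both strands as AGGTCA repeated after 1 free base, was in none of the 37 genes and in 0.0481% of all genes. The EBF site, searched as TCCC and GGGA around 2 free bases, was in none of the 37 and in 1.06% of all. A match is a string of letters and no evidence of binding, and a window without one says nothing of the factor. The windows below belong to the 4 genes with a match that were called on day 10 with both inserts, 3 as higher and 1 as lower. Capitals mark the TGACNNNGC match, which in the first 3 lies on the opposite strand. The windows are chr6:138140277-138140576 for Mgst1, chr3:122245307-122245606 for Gclm, chr16:90220512-90220811 for Sod1 and chr3:107895604-107895903 for Gstm5, all on the plus strand. The match begins 56 bases before the start for Mgst1, 134 before it for Gclm, 56 before it for Sod1 and 42 before it for Gstm5.
Mgst1: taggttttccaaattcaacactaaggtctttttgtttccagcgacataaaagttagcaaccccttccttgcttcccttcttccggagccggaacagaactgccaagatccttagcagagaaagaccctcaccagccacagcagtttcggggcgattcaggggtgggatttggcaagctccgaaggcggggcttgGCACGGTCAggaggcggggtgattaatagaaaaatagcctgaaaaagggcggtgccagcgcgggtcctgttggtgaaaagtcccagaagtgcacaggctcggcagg
Gclm: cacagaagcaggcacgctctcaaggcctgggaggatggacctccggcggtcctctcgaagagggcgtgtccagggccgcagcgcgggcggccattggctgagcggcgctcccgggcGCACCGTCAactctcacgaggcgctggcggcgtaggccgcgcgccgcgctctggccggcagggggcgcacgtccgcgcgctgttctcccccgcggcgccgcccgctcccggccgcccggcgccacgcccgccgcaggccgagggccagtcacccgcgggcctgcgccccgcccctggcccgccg
Sod1: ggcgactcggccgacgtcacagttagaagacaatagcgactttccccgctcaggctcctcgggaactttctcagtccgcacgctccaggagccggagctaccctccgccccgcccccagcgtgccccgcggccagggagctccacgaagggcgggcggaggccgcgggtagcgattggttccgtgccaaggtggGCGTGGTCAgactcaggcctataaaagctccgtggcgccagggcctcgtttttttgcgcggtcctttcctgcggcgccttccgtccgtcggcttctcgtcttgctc
Gstm5: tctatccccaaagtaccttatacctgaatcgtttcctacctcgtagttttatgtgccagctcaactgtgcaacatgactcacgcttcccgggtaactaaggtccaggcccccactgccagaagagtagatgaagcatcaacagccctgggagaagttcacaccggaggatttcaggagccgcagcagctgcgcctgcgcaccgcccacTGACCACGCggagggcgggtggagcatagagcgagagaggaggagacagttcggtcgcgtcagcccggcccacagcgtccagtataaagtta

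Among the 14 glutathione transferases tested, the microsomal enzymes Mgst1 and Mgst3 and the zeta enzyme Gstz1 had the largest rises. MGST1 and MGST3 sit in membranes and act on lipid peroxides, and GSTZ1 is also maleylacetoacetate isomerase, an enzyme of tyrosine breakdown. On day 10 Mgst1 read 414, 509 and 500 in PPARg2 cells and 647 and 574 in EBF1 cells, against 143, 193 and 81.5 in vector cells. All 5 arrays of the inserts lay above the 3 vector arrays. The log2 difference was 1.85 ± 0.26 (SE) for PPARg2 with an adjusted p of 1.4e-07 and 2.22 ± 0.29 for EBF1 with an adjusted p of 3.1e-08.

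The course of Mgst1 began below the floor, at 54.5, that was set for all probe sets. All 12 day-0 arrays lay under it, between 10.4 and 33.2, so fold changes against day 0 are lower bounds. By day 4 Mgst1 was at least 5.80-fold higher than on day 0 in PPARg2 cells, at least 5.42-fold in EBF1 cells and at least 4.22-fold in vector cells. By day 10 the bounds were 8.67-fold in PPARg2 cells, 11.2-fold in EBF1 cells and 2.41-fold in vector cells, the last not called with a floor of 115. Vector cells thus also gained the transcript, with means of 103, 233 and 139 on day 2, day 4 and day 10. The inserts and the vector did not differ by the test on day 4, when the log2 difference was 0.46 for PPARg2 and 0.36 for EBF1.

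Mgst3 already differed before the hormones. On day 0 it read 785, 929, 1282 and 946 in PPARg2 cells and 503, 299, 433 and 394 in EBF1 cells, against 433, 503, 522 and 405 in vector cells. Every PPARg2 array lay above every array of the other cells. PPARg2 cells exceeded vector cells by a log2 difference of 1.07 ± 0.18 with an adjusted p of 6.6e-05, and this held at 0.87 and 1.26 within the 2 array sessions. EBF1 cells lay under PPARg2 cells by -1.28 ± 0.18 on day 0 and -1.01 ± 0.18 on day 2. On day 2 the sessions differed, with -1.65 in one and -0.38 in the other. PPARg2 cells were also above vector cells then, by 0.74 ± 0.18, a call lost on leaving out any of 5 single arrays.

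On day 4 Mgst3 had climbed in all cells, to 3459 ± 532 in PPARg2 cells, 3129 ± 341 in EBF1 cells and 2454 ± 381 in vector cells (SD, n = 7 each). PPARg2 against vector was called at 0.50 ± 0.13, a call lost without vector replicate 1, the lowest of the 7 at 1684. EBF1 against vector was 0.36 and was not called. On day 10 Mgst3 read 3034, 3312 and 4116 in PPARg2 cells and 4324 and 3313 in EBF1 cells, against 1020, 1090 and 861 in vector cells. The inserts kept the day-4 level while the vector mean stood at 990. The day-10 log2 differences were 1.81 ± 0.20 and 1.94 ± 0.23. A second Mgst3 probe set was near the floor throughout, and at or below it on every day-10 array. Averaging both brought the differences to 0.91 and 0.97, because a floored probe set can add no difference. Before flooring, its day-10 means were 37.0 in PPARg2 cells, 37.8 in EBF1 cells and 21.3 in vector cells.

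Gstz1 rose late. Its means on day 2 were 168 in PPARg2 cells, 193 in EBF1 cells and 188 in vector cells. On day 4 the range was 299 to 451 in PPARg2 cells with a median of 409, 212 to 421 in EBF1 cells with a median of 320, and 231 to 342 in vector cells with a median of 257. PPARg2 cells were higher than vector cells by 0.55 ± 0.14, at 0.73, 0.36 and 0.57 within the 3 sessions, though the arrays overlapped. On day 10 Gstz1 read 1087, 1198 and 1520 in PPARg2 cells and 1645 and 1262 in EBF1 cells, against 369, 333 and 268 in vector cells. The log2 differences were 1.97 ± 0.22 (adjusted p = 5.2e-10) for PPARg2 and 2.17 ± 0.24 (adjusted p = 7.6e-10) for EBF1.

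Gsto1, the omega transferase that reduces disulfides and dehydroascorbate, had fallen in all cells by day 2 and stood higher with the inserts on day 10. On day 0 it read 2041, 2128, 2436 and 2658 in PPARg2 cells and 1740, 1217, 1329 and 1758 in EBF1 cells, against 1595, 1539, 2095 and 1477 in vector cells. On day 10 it read 523, 582 and 910 in PPARg2 cells and 1014 and 620 in EBF1 cells, against 481, 401 and 471 in vector cells. Against its own day 0 the log2 change was -1.82 in PPARg2 cells, -0.91 in EBF1 cells and -1.89 in vector cells. The day-10 difference from vector was 0.54 ± 0.20 for PPARg2 (adjusted p = 0.039) and 0.82 ± 0.22 for EBF1 (adjusted p = 0.0048). The first was lost when PPARg2 replicate 3 or any vector array was left out, and the second without EBF1 replicate 1. On day 0, EBF1 minus PPARg2 was -0.63 ± 0.17, a call lost without PPARg2 replicate 4 or EBF1 replicate 2 or 3.

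Gstt1, a theta transferase, passed the filter through only 19 arrays, and its highest group was vector on day 10. It read 167, 173 and 205 in PPARg2 cells and 182 and 192 in EBF1 cells on day 10, against 302, 243 and 418 in vector cells. No insert array reached the lowest vector array. The log2 difference was -0.79 ± 0.17 for PPARg2 (adjusted p = 0.00022) and -0.74 ± 0.18 for EBF1 (adjusted p = 0.0023), the second lost without EBF1 replicate 1. On day 0 Gstt1 was already lower in PPARg2 cells than in vector cells, at -0.56 ± 0.14. There, its arrays read 107, 123, 127 and 154 in PPARg2 cells, against 206, 203, 201 and 144 in vector cells. They overlapped through vector replicate 4, and leaving out any of the other vector arrays, or PPARg2 replicate 1, ended the call.

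**Figure D2:**
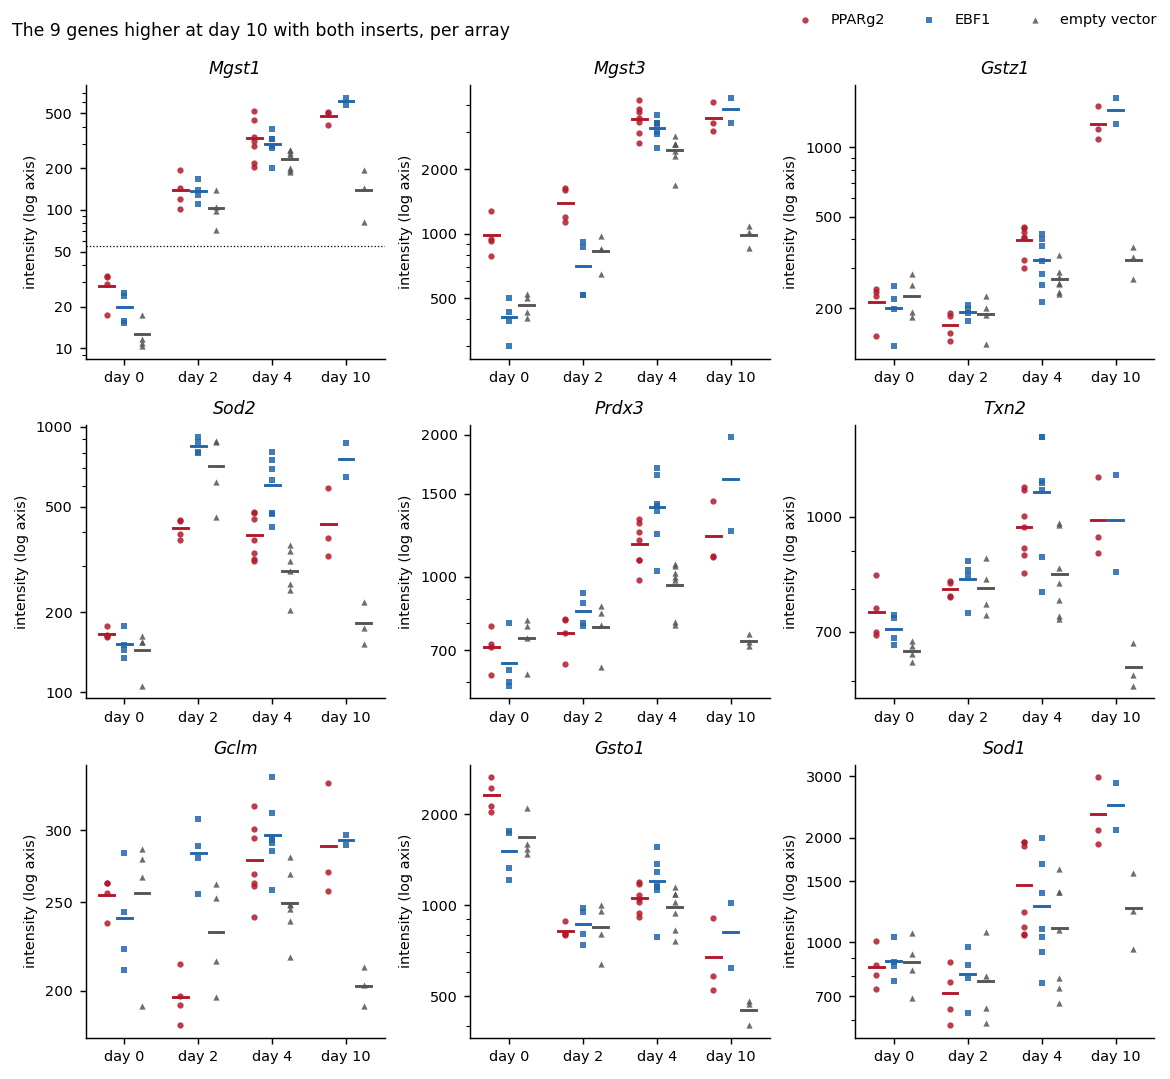
Intensity of the 9 genes called higher on day 10 with both inserts, on a log axis, for every array by day, with PPARg2 (circles), EBF1 (squares) and empty vector (triangles) side by side and a bar at each group mean. The dotted line in the Mgst1 panel is the floor of 54.5, below which all 12 day-0 arrays lie, and in each panel the 3 vector arrays of day 10 lie under the 5 arrays of the inserts.

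Of the 7 alpha and mu transferases tested, Gsta4, Gstm1 and Gstm5 were called against day 0 by the probe sets that stand for them. Gsta2, Gstm2, Gstm3 and Gstm6 were not. The second probe sets of Gstm3 and Gstm2 nevertheless read lower on day 2 than on day 0. The Gstm3 means went from 1061 to 567 in EBF1 cells, 1114 to 647 in vector cells and 919 to 727 in PPARg2 cells. For Gstm2 they went from 234 to 101, 231 to 118 and 147 to 109 in that order. Day-0 and day-2 arrays of these probe sets overlapped in PPARg2 cells only. Gsta4, which conjugates the lipid peroxidation product 4-hydroxynonenal, read 275, 289, 263 and 274 in PPARg2 cells on day 2, 226, 209, 171 and 191 in EBF1 cells, and 239, 216, 243 and 235 in vector cells. The day-0 means were 627, 700 and 629 in the same order of inserts. The log2 change was -1.18 in PPARg2 cells, -1.81 in EBF1 cells and -1.42 in vector cells, with both sessions at or below -1.04 in each. No day-2 array of any insert reached a day-0 array. By day 10 the means were back at 630 in PPARg2 cells, 648 in EBF1 cells and 550 in vector cells, and no change from day 0 was called.

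Gstm1, a mu transferase, was also lower on day 2 than on day 0 by the probe set that stands for it, at -0.84 in PPARg2 cells, -1.61 in EBF1 cells and -1.24 in vector cells. On day 2 it read 936, 972, 1244 and 1196 in PPARg2 cells and 667, 699, 656 and 700 in EBF1 cells, against 899, 895, 1009 and 913 in vector cells. EBF1 cells lay under both other kinds of cell on every array. EBF1 was lower than vector by -0.45 ± 0.12 (adjusted p = 0.044) and lower than PPARg2 by -0.67 ± 0.12 (adjusted p = 0.00015). The call against vector was lost on leaving out any one of the 8 arrays. On day 4 EBF1 was again lower than vector, at -0.32 ± 0.09, a call lost at -0.12 when both Gstm1 probe sets were averaged. The second probe set was never called, with day-2 changes from day 0 of 0.23 in PPARg2 cells, -0.21 in EBF1 cells and 0.10 in vector cells, and EBF1 minus vector at -0.08 on day 2. Averaging brought the day-2 changes to -0.31 in PPARg2 cells, -0.91 in EBF1 cells and -0.57 in vector cells, all still called. By day 10 the means of 1922, 2293 and 2215 in PPARg2, EBF1 and vector cells gave no call.

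The mu family is the weakest in these data, since its genes are near copies of one another and several probe sets are marked by the manufacturer as shared within a family. Gstm5 was lower on day 10 at -0.42 ± 0.14 with PPARg2 and -0.46 ± 0.16 with EBF1, reading 943, 1000 and 1144 in PPARg2 cells and 1030 and 972 in EBF1 cells, against 1453, 1228 and 1449 in vector cells. Of its 3 other probe sets 1 was called lower with PPARg2 and none with EBF1, and the mean of all 4 ended both calls. Their day-10 means in PPARg2, EBF1 and vector cells were 348, 391 and 464, 210, 199 and 224, and 426, 381 and 359. The last of these was thus higher with the inserts. Both calls were also lost without vector replicate 1 or 3, and the PPARg2 call without PPARg2 replicate 1 or 2. Gstm2 was not called by the probe set that stands for it, yet its second probe set read 141, 153 and 160 in PPARg2 cells and 180 and 232 in EBF1 cells, against 292, 286 and 371 in vector cells on day 10. That second probe set gave -1.06 ± 0.16 for PPARg2 and -0.62 ± 0.17 for EBF1. Which mu gene these signals come from is therefore uncertain. Gstm3, Gstm6, Gsta2 and Mgst2 were never called in the 23 comparisons by the probe sets that stand for them, with group means within 1.24-fold to 1.38-fold of each other. Gstp1, the pi transferase, was called against day 0 in PPARg2 cells, at -0.48 on day 2 and -0.33 on day 4 (the second lost in 8 of 19 other settings), and in none of the other comparisons.

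Of the 4 genes of glutathione synthesis and recycling, Gclm was called with both inserts on day 10 and Gsr with PPARg2. GCLM is the modifier subunit of glutamate-cysteine ligase. It read 257, 270 and 338 in PPARg2 cells and 289 and 296 in EBF1 cells, against 212, 192 and 203 in vector cells. The groups did not overlap, and the log2 difference was 0.50 ± 0.12 (adjusted p = 0.0016) for PPARg2 and 0.53 ± 0.14 (adjusted p = 0.0035) for EBF1. On day 10 against day 0, vector cells gave -0.32, a call lost in 11 of 15 other settings, and neither insert was called. Earlier, PPARg2 cells were lower than on day 0 by -0.37 on day 2, and EBF1 cells were higher by 0.31 on day 4. EBF1 also exceeded vector on day 4, by 0.25, a call lost in 3 of 22 other settings. The catalytic subunit Gclc and the synthetase Gss were never called, with Gclc at 525 ± 30.7 in PPARg2 cells (SD, n = 3), 521 ± 77.5 in EBF1 cells (n = 2) and 440 ± 70.3 in vector cells (n = 3) on day 10.

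Gsr, glutathione reductase, had its peak on day 2 in EBF1 and vector cells and on day 4 in PPARg2 cells. On day 2 it read 298, 312, 327 and 342 in PPARg2 cells and 542, 586, 563 and 507 in EBF1 cells, against 427, 420, 423 and 379 in vector cells. The 3 kinds of cell did not overlap. EBF1 exceeded PPARg2 by 0.78 ± 0.12 (adjusted p = 7.3e-06), at 0.89 and 0.67 in the 2 sessions. Against day 0 the rise was 1.27 in EBF1 cells and 0.74 in vector cells, while PPARg2 cells gave 0.21 and no call. Against vector on day 2 the difference was -0.37 for PPARg2 and 0.41 for EBF1, with adjusted p of 0.3 and 0.066. On day 10 Gsr read 289, 280 and 276 in PPARg2 cells and 266 and 295 in EBF1 cells, against 216, 212 and 209 in vector cells. The difference was 0.41 ± 0.14 for PPARg2 (adjusted p = 0.026) and 0.40 ± 0.16 for EBF1 (adjusted p = 0.067). The PPARg2 call was lost in 5 of the 6 settings that left out 1 array of either group. On day 4 the arrays of the later session, which also holds day 10, read 279 to 363, below the other day-4 arrays in each kind of cell. With session as a block Gsr was higher on day 10 than on day 0, by 0.40 in PPARg2 cells and 0.68 in EBF1 cells, where the fit without it made no call.

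Among the peroxidases tested, the mitochondrial peroxiredoxin Prdx3 rose and the endoplasmic reticulum peroxiredoxin Prdx4 fell. On day 10 Prdx3 read 1105, 1101 and 1448 in PPARg2 cells and 1975 and 1253 in EBF1 cells, against 715, 729 and 755 in vector cells. All insert arrays were above the vector arrays, and the vector mean of 733 was close to its day-0 mean of 741. The log2 difference was 0.72 ± 0.15 (adjusted p = 0.00031) for PPARg2 and 1.10 ± 0.17 (adjusted p = 2.4e-06) for EBF1. On day 4 EBF1 cells ranged over 1031 to 1698 with a median of 1411, and vector cells over 791 to 1064 with a median of 998. That difference was 0.54 ± 0.10, and it was 0.73, 0.57 and 0.40 within the 3 sessions.

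Prdx4 reached its highest mean in vector cells on day 10. It read 812, 889 and 1374 in PPARg2 cells and 970 and 1140 in EBF1 cells, against 2124, 1777 and 2996 in vector cells. The inserts lay wholly below the vector, at -1.17 ± 0.23 (adjusted p = 0.00011) for PPARg2 and -1.09 ± 0.26 (adjusted p = 0.0014) for EBF1. Prdx4 had fallen by day 4 in every kind of cell, by 0.91 on the log2 scale in PPARg2 cells, 1.85 in EBF1 cells and 0.95 in vector cells. In EBF1 cells the fall was present on day 2, when they read 581, 785, 841 and 681, against 1164, 1006, 1424 and 1232 in PPARg2 cells. EBF1 minus PPARg2 was -0.74 ± 0.20 there, and -0.68 and -0.81 in the 2 sessions. That call was lost without PPARg2 replicate 3 or 4 or EBF1 replicate 1. On day 4 EBF1 was below vector by -0.56 ± 0.15, at -0.08, -0.64 and -0.83 within the sessions. The EBF1 call on day 10 was lost without EBF1 replicate 1.

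Gpx4, the peroxidase that reduces phospholipid hydroperoxides, was called against vector with EBF1. On day 10 it read 782, 909 and 1493 in PPARg2 cells and 2136 and 1425 in EBF1 cells, against 591, 578 and 770 in vector cells. EBF1 exceeded vector by 1.45 ± 0.30 (adjusted p = 0.0003), a call lost without EBF1 replicate 1. PPARg2 gave 0.67 ± 0.27 with an adjusted p of 0.069. EBF1 against PPARg2 was 0.77 with a 95% interval of 0.18 to 1.37 and an adjusted p of 0.36. Against day 0, PPARg2 cells were called higher on day 10 at 0.67, a call lost in 6 of 15 other settings. EBF1 cells were called higher than on day 0 at 0.79 on day 4 and 1.59 on day 10. Prdx2, a cytosolic peroxiredoxin, followed the dip of the transferases, with day-2 changes of -0.68 in PPARg2 cells, -0.49 in EBF1 cells and -0.47 in vector cells, the last 2 lost when its probe sets were averaged. Gpx1 and the plasma peroxidase Gpx3 were never called. Srxn1, sulfiredoxin, fell in PPARg2 cells on day 2 by the probe set that stands for it, at -0.75 against day 0. A second Srxn1 probe set, under the filter and not tested, went the other way in these cells. It read 78.0 to 99.3 on day 0 and 116 to 138 on day 2, so the direction for Srxn1 is uncertain.

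All 3 superoxide dismutases were higher on day 10 than on day 0 with either insert, and Sod2 and Sod1 were also higher than in vector cells. Sod2, the mitochondrial enzyme, read 325, 382 and 586 in PPARg2 cells and 872 and 647 in EBF1 cells on day 10, against 218, 174 and 152 in vector cells. Vector lay below both inserts on every array. The difference was 1.22 ± 0.23 (adjusted p = 4.4e-05) for PPARg2 and 2.06 ± 0.26 (adjusted p = 1.3e-08) for EBF1. EBF1 against PPARg2 was 0.85 ± 0.26 with an adjusted p of 0.097.

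The course of Sod2 split the inserts on day 2. It then read 446, 443, 395 and 376 in PPARg2 cells and 876, 913, 800 and 802 in EBF1 cells, against 881, 886, 619 and 456 in vector cells, where every day-0 array lay between 106 and 178. The day-2 rise was thus present with the empty vector, at 2.27 ± 0.20, as in EBF1 cells at 2.49 ± 0.20, and was 1.32 ± 0.20 in PPARg2 cells. EBF1 exceeded PPARg2 by 1.03 ± 0.20, with 1.01 and 1.06 in the sessions. PPARg2 minus vector was -0.73 on day 2 and was not called. The vector arrays then read 881 and 886 in one session and 619 and 456 in the other. On day 4 EBF1 cells were above vector cells, with 421 to 803 and a median of 629 against 203 to 360 and a median of 287. That difference was 1.07 ± 0.15 (adjusted p = 4.2e-07), and 1.32, 1.05 and 0.91 within sessions.

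Sod1, the cytosolic copper-zinc enzyme, was higher with the inserts and also differed between array sessions. On day 10 it read 1917, 2102 and 2989 in PPARg2 cells and 2872 and 2102 in EBF1 cells, against 1581, 961 and 1229 in vector cells. All of these arrays belong to one session, and the inserts lay above vector throughout. The differences were 0.90 ± 0.30 for PPARg2 (adjusted p = 0.022) and 1.00 ± 0.33 for EBF1 (adjusted p = 0.028). Each was lost without vector replicate 2 or 3, the first also without PPARg2 replicate 3 and the second also without EBF1 replicate 1. Against day 0 the rise was 1.44 in PPARg2 cells and 1.48 in EBF1 cells. No session holds both days, and with session as a block, tied through day 4 alone, it was 0.61 (adjusted p = 0.022) and 0.65 (adjusted p = 0.033). On day 4 the 3 arrays of that later session read 1944, 1947 and 1889 in PPARg2 cells, 1680, 1995 and 1386 in EBF1 cells and 1392, 1400 and 1625 in vector cells, while the other 4 of each insert lay at 1220 or below. Sod3, the extracellular enzyme, was higher than on day 0 by 0.72 with PPARg2 and 0.59 with EBF1, and was not called against vector. The EBF1 call was lost without day-0 replicate 1 or 4 or day-10 replicate 2, and vector cells gave 0.48 with an adjusted p of 0.063.

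In the thioredoxin system the transcripts of the mitochondrial and the cytosolic protein went opposite ways in PPARg2 cells. Txn2, mitochondrial thioredoxin, read 894, 940 and 1133 in PPARg2 cells and 1140 and 842 in EBF1 cells on day 10, against 591, 611 and 676 in vector cells. No array overlapped, and the difference was 0.65 ± 0.13 (adjusted p = 0.00012) for PPARg2 and 0.65 ± 0.15 (adjusted p = 0.00081) for EBF1, the EBF1 call lost without EBF1 replicate 1. On day 4 EBF1 was also higher, by 0.36 ± 0.09. Txn1, the cytosolic protein, read 1658, 1686 and 2506 in PPARg2 cells and 2212 and 1954 in EBF1 cells on day 10, against 2668, 2104 and 3190 in vector cells. The PPARg2 arrays overlapped with those of vector, and the difference was -0.45 ± 0.14 (adjusted p = 0.011), lost without PPARg2 replicate 1 or 2 or vector replicate 3. EBF1 gave -0.33 with an adjusted p of 0.14. From their own day 0, PPARg2 cells fell by 1.15 and EBF1 cells by 0.63. On day 2 Txn1 was higher in EBF1 than in PPARg2 cells on every array, by 0.48 ± 0.12.

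The cytosolic reductase Txnrd1 fell on day 2 in all cells, by 0.67 in PPARg2 cells, 0.27 in EBF1 cells and 0.37 in vector cells. Against vector it was called once, at 0.19 ± 0.07 for EBF1 on day 4 with an adjusted p of 0.048, which 12 of 22 other settings lost. The mitochondrial reductase Txnrd2 was never called.

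**Figure D3:**
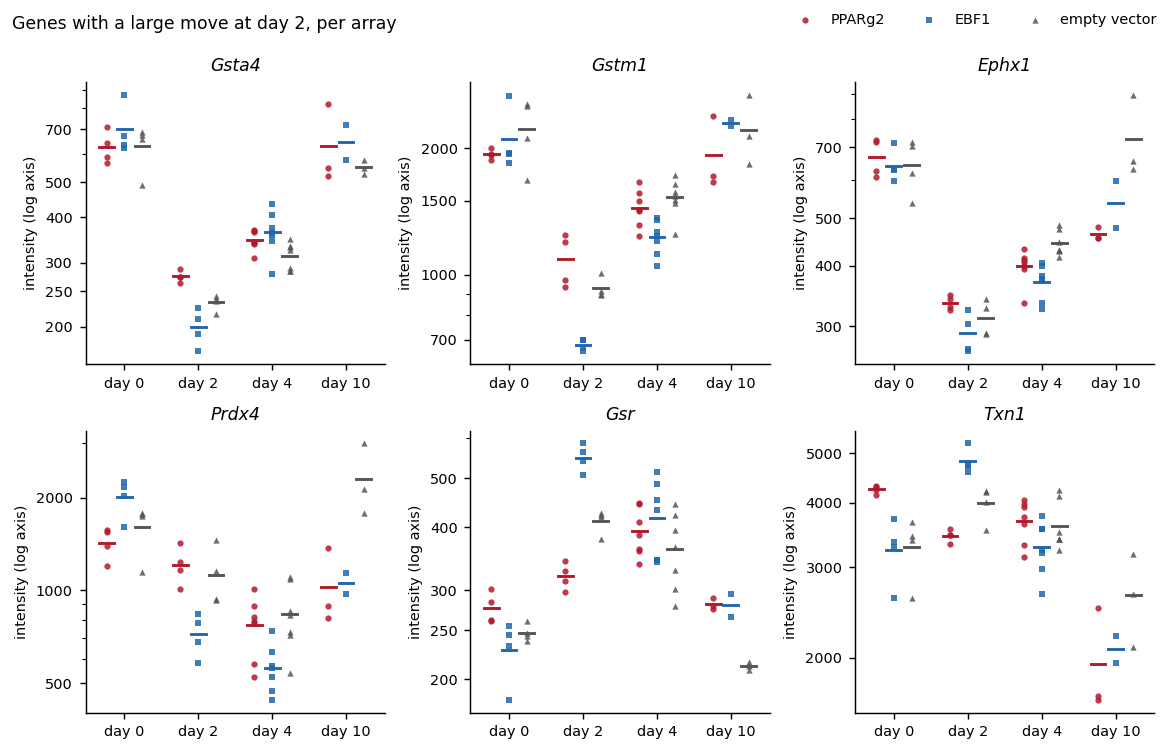
Intensity of 6 genes with a day-2 change in at least 1 kind of cell, on a log axis, for every array by day, with PPARg2 (circles), EBF1 (squares) and empty vector (triangles) side by side and a bar at each group mean. Gsta4, Gstm1 and Ephx1 dip on day 2 in all cells, Gsr on day 2 separates the 3 kinds of cell, and Prdx4 on day 10 stands highest in vector cells.

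Of the regulator and the phase I and haem enzymes, Nfe2l2, which encodes NRF2, was lower in PPARg2 cells. On day 10 it read 212, 227 and 217 in PPARg2 cells and 265 and 287 in EBF1 cells, against 283, 301 and 410 in vector cells. PPARg2 lay below all vector arrays, at -0.58 ± 0.12 (adjusted p = 0.0003), while EBF1 gave -0.24 ± 0.14 with an adjusted p of 0.27. On day 4 both inserts were called, at -0.26 ± 0.08 for PPARg2 and -0.24 ± 0.08 for EBF1. Those calls were lost in 11 of 22 other settings for PPARg2 and in 5 of 22 for EBF1.

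Ephx1, microsomal epoxide hydrolase, dipped on day 2 by 0.99 in PPARg2 cells, 1.14 in EBF1 cells and 1.04 in vector cells. It recovered less with the inserts. On day 10 it read 457, 456 and 480 in PPARg2 cells and 478 and 598 in EBF1 cells, against 656, 633 and 898 in vector cells. Neither insert overlapped vector, at -0.63 ± 0.11 (adjusted p = 2e-05) for PPARg2 and -0.43 ± 0.13 (adjusted p = 0.011) for EBF1, the second lost without EBF1 replicate 1 or vector replicate 3. Hmox1, haem oxygenase, was higher on day 4 than on day 0 in all cells, by 0.79 with PPARg2, 0.60 with EBF1 and 0.50 with vector, and EBF1 exceeded vector then by 0.25 ± 0.08. Nqo1, a standard NRF2 target, read between 69.7 and 164 on all arrays by the probe set that stands for it. It passed the filter of 158 on 1 of them, so it was not tested. Its highest group mean, 137, was in PPARg2 cells on day 0. A second probe set, also not tested, then read 80.7 to 119 in PPARg2 cells. It read 40.2 to 59.9 in EBF1 cells and 50.2 to 67.2 in vector cells that day, with some of these arrays under the floor.

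Before day 10 the inserts set fewer of these genes apart from vector. On day 0, PPARg2 cells had 1 gene higher and 1 lower, Mgst3 and Gstt1, while 3.77% of all genes were called, 2.24% as higher and 1.53% as lower. EBF1 cells had none by limma on day 0, with 2 at an unadjusted p under 0.05, beside 0.833% of all genes, 0.382% higher and 0.451% lower. On day 2, PPARg2 had Mgst3 higher and no gene lower, with 0.642% of all genes called, 0.174% higher and 0.469% lower. EBF1 on day 2 had Gstm1 lower and no gene higher, with 1.56% called, 0.885% higher and 0.677% lower. For these last 4 against 4 arrays the replicate numbers pair the arrays, and with the number as a block 1 gene was higher and 2 were lower. On day 4, PPARg2 had 2 higher and 1 lower beside 7.93% of all genes, 5.95% higher and 1.98% lower. EBF1 had 6 higher and 4 lower beside 19.5%, 11.4% higher and 8.16% lower. With the replicate number or the session as a block the PPARg2 count was 6 higher and 1 lower.

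EBF1 and PPARg2 cells were also compared with each other. On day 0 EBF1 cells had Gstt1 higher and Mgst3, Gsto1, Txn1 and Nfe2l2 lower, with 6.35% of all genes called, 2.43% higher and 3.92% lower. The Txn1 call was lost in 8 of 16 other settings and the Nfe2l2 call in 5 of 16. On day 2 they had Sod2, Gsr, Gclm and Txn1 higher and Mgst3, Prdx4, Gstm1 and Gsta4 lower, 8 of 36 genes (22.2%), beside 5.35% of all, 3.85% higher and 1.49% lower. On day 4 Sod2 alone was called, higher by 0.61 ± 0.15, beside 6.16% of all genes, 2% higher and 4.17% lower. Gclm on day 2 read 256, 280, 309 and 288 in EBF1 cells, above the 198, 183, 214 and 193 of PPARg2 cells on every array.

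Within each kind of cell, genes were called in both directions against day 0. All cells received the hormones, so hormones and time in culture cannot be told apart. Against day 0, PPARg2 cells had 3 genes higher and 11 lower on day 2, 9 and 10 on day 4, and 11 and 7 on day 10. Over all genes 24.4%, 33.4% and 33% were called in those comparisons, 7.98%, 15% and 13.5% as higher and 16.5%, 18.4% and 19.5% as lower. EBF1 cells had 6 higher and 10 lower on day 2, 10 and 8 on day 4, and 9 and 4 on day 10, with 23.1%, 34% and 28% of all genes called, 10.3%, 16.8% and 14.6% as higher and 12.7%, 17.1% and 13.4% as lower. Vector cells had 4 higher and 8 lower on day 2, 7 and 9 on day 4, and 3 and 2 on day 10, with 22.2%, 25% and 15.5% called, 9.43%, 11.7% and 9.3% as higher and 12.8%, 13.3% and 6.16% as lower. The vector counts on day 2 and day 10 became 17 and 8 genes without vector replicate 4 of day 0, which stood apart in several genes. The 2 genes lower in vector cells on day 10 were Gsto1 and Gclm, and the 3 higher were Mgst1, Mgst3 and Gstt1.

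**Figure D4:**
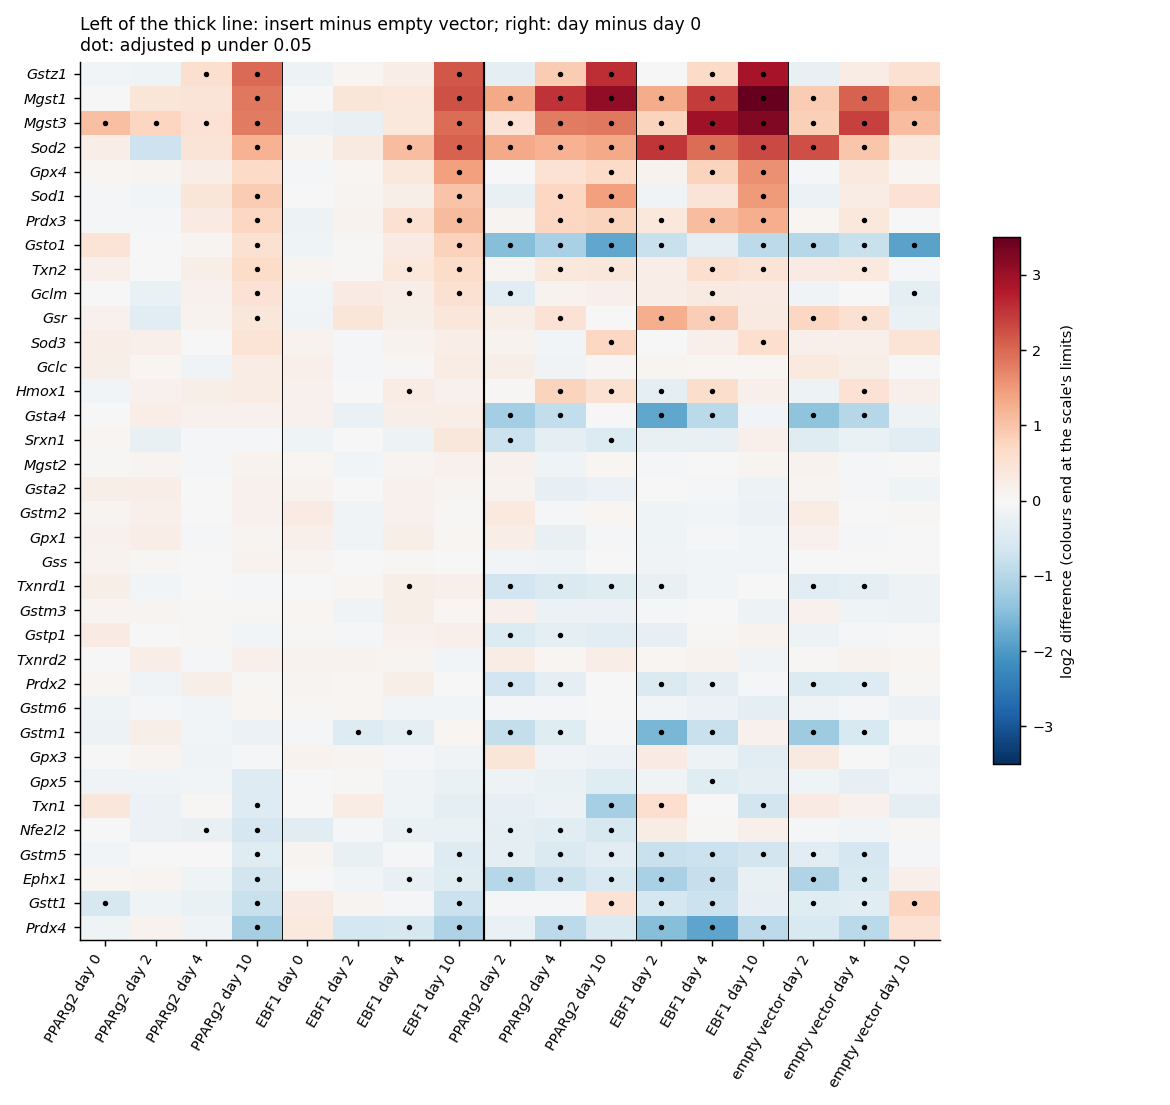
Log2 differences of the 36 tested genes, as colours, for each insert minus empty vector on each day (left of the thick line) and for day 2, day 4 and day 10 minus day 0 in each kind of cell (right of it), with a dot where the adjusted p is under 0.05. The dots gather in the day-10 columns of both inserts on the left, with 16 for PPARg2 and 14 for EBF1, and 10 of the genes have no dot in any column.

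The difference between an insert's effect on day 10 and on day 0 was tested as an interaction. For PPARg2, 5 genes had a more positive effect on day 10 and 4 a more negative one, beside 12.5% of all genes called, 5.28% as more positive and 7.2% as more negative. For EBF1 the counts were 9 and 2, beside 12.9%, 8.45% and 4.43%. The total of 9 for PPARg2 became 5 without vector replicate 3 of day 10, and the total of 11 for EBF1 became 7 without EBF1 replicate 1 of day 10. Gstz1 led both, at 2.06 ± 0.28 for PPARg2 and 2.36 ± 0.30 for EBF1. Mgst3 was called for EBF1 only, at 2.15 ± 0.29, and PPARg2 cells had carried a higher level of it from day 0.

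Other redox genes outside the symbol rule were counted beside the members. Of 64 listed, 50 had a probe set and 43 were tested. On day 10, PPARg2 cells had 9 higher and 9 lower, and EBF1 cells had 11 higher and 4 lower than vector cells, beside 24.1% and 18.5% of all genes called. Of the 8 genes that make NADPH, 5 were higher and 1 lower with each insert. Me1, malic enzyme, read 640, 682 and 994 in PPARg2 cells and 1348 and 910 in EBF1 cells on day 10, against 234, 175 and 137 in vector cells. Its log2 difference was 2.09 ± 0.24 for PPARg2 and 2.64 ± 0.27 for EBF1. Cat, catalase, which removes hydrogen peroxide in peroxisomes, read 1500, 1579 and 2018 in PPARg2 cells and 2874 and 2158 in EBF1 cells, against 748, 514 and 376 in vector cells. It was higher by 1.68 ± 0.20 and 2.25 ± 0.23, and the pentose phosphate enzymes Tkt and Taldo1 were higher by 1.48 and 1.45 with PPARg2 and by 1.70 and 1.91 with EBF1.

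The 9 genes lower with PPARg2 were Cyba, Rac1, Xdh, Mt2, Bach1, Txndc5, Nnt, Slc3a2 and Aldh3a2, and Cyba, Xdh, Mt2 and Nnt were the 4 lower with EBF1. They are named here after their values were seen. Cyba and Rac1 serve the superoxide-making NADPH oxidase, and all 3 superoxide makers tested were lower with PPARg2. Cyba gave -0.65 with PPARg2 and -0.64 with EBF1, and Xdh gave -0.93 and -0.84. Nnt, the mitochondrial transhydrogenase that makes NADPH, gave -0.73 and -0.66.

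On day 4, Me1 was higher by 0.89 with PPARg2 and 0.67 with EBF1, and Cat by 0.44 and 0.61. Xdh, xanthine dehydrogenase, whose oxidase form makes superoxide, was lower by 0.50 on the log2 scale with PPARg2 and by 1.05 with EBF1. Txnip, an inhibitor of thioredoxin, was 1292 to 1931 with a median of 1504 in EBF1 cells, under the vector range of 2110 to 2958 with a median of 2732, a log2 difference of -0.74 ± 0.11.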

How the data were processed

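RNA from the 12 groups was hybridised to 53 Affymetrix mouse arrays of one colour. The values are linear intensities per probe set, as the authors deposited them; the sources used here do not give how probe pairs were summarised or scaled. The headers of the scanner's experiment files give dates, and the arrays were grouped here by month into 3 sessions. Session 2 pools neighbouring months, and session 3 is dated in a later year than sessions 1 and 2. Sessions 1 and 2 each hold 2 arrays of every day-0, day-2 and day-4 group, and session 3 holds 3 day-4 arrays of each insert and all of day 10. No 2 arrays were identical.

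Intensities from the deposited table were floored at 54.5, the 20th percentile over all arrays, and put on the log2 scale with no further scaling. Probe sets above 158, the pooled median, on at least 2 arrays were kept (7619), and 1 probe set stood for each of 5761 genes, that of highest mean. Symbols came from the platform annotation supplied with the data: of 12488 probe sets, 66 of them controls, 10833 had 1 symbol, 396 several and 1193 none. A single model of 12 group means was fitted with limma 3.58.1 in R 4.3.3 (eBayes with a trend). Its p-values were adjusted by Benjamini-Hochberg over all 7619 tested probe sets within each of 23 comparisons, and the 5761 genes were then counted. Errors of log2 differences are standard errors. The number of arrays limits the precision. Data were simulated with the day-10 array numbers and 7619 probe sets, of which 67 were shifted by 1 on the log2 scale and 67 by 0.5. The fit called 95.5% (PPARg2 against vector) and 88.1% (EBF1 against vector) of those shifted by 1, and 41.8% and 32.8% of those shifted by 0.5. In the data 24.1% and 18.5% of all genes were called in these comparisons, a far larger share, so the simulated rates need not hold there.

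The members and lists were chosen with earlier results of these data known. Values are given for a fixed panel of redox genes and for the largest calls of each comparison (4 each way against vector on day 4 and day 10, 3 elsewhere), and further members that were called are added. Among comparisons with 3 or more pairs, every same-number correlation of deviations was over 0.1 in EBF1 against vector on day 2 and in no other. There it was 0.621 to 0.678 over 4 pairs, so the numbers were taken to pair those arrays. The values given for that comparison nevertheless come from the fit without pairing. Its count with the number as a block is given beside the main count. Alternatives were quantile normalization, a floor at 115, no filter, a filter of 215 on 4 arrays, the mean of a gene's probe sets, only the groups compared, replicate or session as a block, each session alone, and 1 array left out.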

Additional observations from a re-analysis of the deposited data

Results flagged for a closer look

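Over 26 genes, 231 groups of 4 or more arrays were checked, and in 19 of them 1 array stood far from the others. Chance gives about 1 in 20 for independent checks. These checks share arrays and are not independent, so the 19 cannot be set against that rate. Vector replicate 4 of day 0 accounts for 6 of the 19. It read 512 for Gclc where the others read 413 to 417, 396 for Gpx4 against 684 to 744, 490.3 for Gsta4 against 659 to 690.1, 144 for Gstt1 against 201 to 206, 1146 for Prdx4 against 1743 to 1787 and 106 for Sod2 against 154 to 163. PPARg2 replicate 4 of day 0 read 238 for Gpx3 against 187 to 190, 152 for Gstz1 against 225 to 242 and 283 for Nfe2l2 against 333 to 338, and PPARg2 replicate 1 of day 0 read 479 for Txnrd1 against 519 to 525. In EBF1 cells of day 0, replicate 2 read 418 for Gpx4 against 631 to 655 and replicate 1 read 2659 for Gstm1 against 1847 to 1950.

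On day 2, vector replicate 4 read 379 for Gsr against 420 to 427, vector replicate 3 read 1009 for Gstm1 against 895 to 913, vector replicate 2 read 161 for Gstt1 against 129 to 134, and EBF1 replicate 3 read 234 for Sod3 against 363 to 368. On day 4, PPARg2 replicate 7 read 336 for Ephx1 against 393 to 433, EBF1 replicate 6 read 123 for Gpx3 against 178 to 229, and vector replicate 1 read 1684 for Mgst3 against 2313 to 2863. The cause was not tested in any of these.

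The effect of an insert against vector differed between day 10 and day 0 by the interaction test of limma in 20 cases. For PPARg2 the day-10 minus day-0 difference of the log2 effect was 2.06 for Gstz1, 1.85 for Mgst1, 0.99 for Sod2, 0.78 for Prdx3, 0.49 for Gclm, -0.60 for Nfe2l2, -0.69 for Ephx1, -0.83 for Txn1 and -1.01 for Prdx4. For EBF1 it was 2.36 for Gstz1, 2.22 for Mgst1, 2.15 for Mgst3, 1.98 for Sod2, 1.52 for Gpx4, 1.28 for Prdx3, 0.97 for Gsto1, 0.62 for Gclm, 0.55 for Txn2, -1.04 for Gstt1 and -1.43 for Prdx4. The adjusted p ran between 4.4e-07 and 0.037 for PPARg2 and between 5.8e-08 and 0.041 for EBF1. The Gclm value of PPARg2 lost its call in 9 of 22 other settings and the Txn2 value of EBF1 in 10 of 21. The 2 days share no array session.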

How the results depend on the processing

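None of the 212 calls over the 23 comparisons changed sign in any setting in which it was fitted. Of 63 day-10 minus day-0 values, 11 changed sign with the session block, none of them called without it. The counts of called genes that moved by over 1.5 times were these. For PPARg2 against vector, the day-0 count of 2 became 1 with only the groups compared or in session 2. The day-2 count of 1 became 0 with no filter, only the groups compared or session 2, and 3 with the replicate block, the session block or session 1. The day-4 count of 3 became 5 with the higher floor, 7 with the replicate block or the session block, 1 in session 1 or 3 and 0 in session 2. For EBF1 against vector, the day-0 count of 0 became 1 with quantile normalization, the replicate block or the session block. The day-2 count of 1 became 4 with quantile normalization, 3 with the replicate block, 2 with the session block, and 0 with no filter, the mean of probe sets, only the groups compared or session 2. The day-4 count of 10 became 1 in session 2 and 4 in session 3. For EBF1 against PPARg2, the day-0 count of 5 became 3 with only the groups compared or session 1 and 2 in session 2, the day-2 count of 8 became 3 in session 2, the day-4 count of 1 became 4 with quantile normalization, 3 with the replicate block, 2 with the session block and 0 in session 2 or 3, and the day-10 count of 0 became 1 with the replicate or session block. Against day 0, the vector counts of 12 on day 2 and 16 on day 4 became 7 in session 2, the vector count of 5 on day 10 became 3 with the higher floor or only the groups compared and 9 with the replicate block, and the PPARg2 count of 14 on day 2 became 9 in session 2. A single session holds fewer arrays; the cause was not tested elsewhere.

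Leaving out 1 array gave ranges of 1 to 2, 0 to 1, 2 to 6 and 12 to 14 for PPARg2 against vector on day 0, day 2, day 4 and day 10. For EBF1 against vector they were 0 to 0, 0 to 0, 7 to 13 and 6 to 14, and for EBF1 against PPARg2 3 to 5, 7 to 8, 1 to 3 and 0 to 1. Against day 0, on day 2, day 4 and day 10, they were 11 to 14, 17 to 20 and 16 to 20 for PPARg2, 14 to 16, 15 to 19 and 11 to 13 for EBF1, and 10 to 17, 15 to 16 and 4 to 8 for vector. The interaction counts were 5 to 10 for PPARg2 and 7 to 12 for EBF1. Of the 212 calls, 30 were lost with only the groups compared, 15 with no filter, 8 with quantile normalization, 5 with the higher floor and none with the stricter filter. The session block lost 8, among them on day 10 against day 0 Gclm in vector cells, Gstm5, Srxn1 and Gpx4 in PPARg2 cells and Prdx4 in EBF1 cells. The replicate block lost 2, Gstt1 on day 4 in vector cells and Gpx5 on day 4 in EBF1 cells. As to pairing, EBF1 against vector on day 10 has only 2 pairs, with correlations of 0.584 and 0.689, and the replicate block did not move its count by over 1.5 times; on day 4, 4 of 7 arrays correlated best with their own number. Depth cannot be given for arrays, and Mgst1 on day 0 and the 7 untested genes are limited by signal near background.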
